A study of Drosophila melanogaster with 4 samples.

Results

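KDM4A was called enriched in 323 regions of chromosome 4 and of the 6 heterochromatic scaffolds of the Drosophila melanogaster assembly, out of 8653 regions in the whole list of the replicate set. These 323 are all enriched regions that the list places on chromosome 4 (150 regions) or on 2LHet (14), 2RHet (53), 3LHet (57), 3RHet (36), XHet (6) and YHet (7). They were chosen by position alone, with no use of score, width or replicate agreement. The 8204 regions of the 5 large arms 2L, 2R, 3L, 3R and X served as background.

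The data were ChIP-seq (chromatin immunoprecipitation followed by sequencing) with the antibody Q2541 against KDM4A, also called JMJD2A, in head nuclei of wild-type Oregon-R flies, labelled mixed adult. All samples shared this strain, genotype, stage and tissue, and no flies lacking KDM4A were among them. There were 2 KDM4A ChIP samples, called replicate 1 and replicate 2, and 2 input samples of chromatin without immunoprecipitation, which entered only through the calls against them. The labels do not say that the replicates came from separate collections of flies, so the spread between them may be technical. The labels used here do not state the sex of the flies, which bears on how many nuclei carried YHet sequence.

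KDM4A is a demethylase of lysine residues on histone H3, and the fly protein binds HP1a, a structural protein of heterochromatin. Chromosome 4 is a very small chromosome that is rich in HP1a and in silent-chromatin marks over most of its length and yet carries expressed genes. The Het scaffolds are assembled pieces of the gene-poor, repeat-rich sequence beside the centromeres, and YHet is such sequence of the Y chromosome. Reads from repeats are hard to place at a single position, so peak lists say less about such sequence than about the arms.

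Positions are those of FlyBase release 5, counted from 1, and neither its sequence nor its gene models were used here, so each region is given by its position and carries no gene name. Each region carries 1 score assigned by the authors. Its scale is not stated. In each list a minority of scores, 5.93% in the replicate-set list, had the form of a log2 ratio of whole numbers plus a constant. This form is described with the highest-scored regions of the scaffolds. If all scores have it, a difference of 1 between scores of 1 list is a doubling. The constants found differ between lists, and it is not stated whether they put the 3 lists on 1 scale. Without read counts in the lists, depth per region is unknown, and the share of chromosome 4 or of a scaffold on which reads could be placed was not measured. No test over samples was run, because an exact two-sided sign-flip test of 2 samples cannot go below p = 0.5. Intervals for shares are 95% Wilson intervals and reflect only how many regions were counted.

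Chromosome 4 was densely occupied and the scaffolds sparsely. In the replicate-set list, regions covered 29.1% of the 1351857 bp of chromosome 4, against 21.3% of the large arms and 3.87% of the scaffolds. Replicate 1 covered 23.2% of chromosome 4 and replicate 2 covered 19.7%, a mean of 21.4% ± 2.51 (SD, n = 2), while the arms had 16.5% and 17.7%. In replicate 1 chromosome 4 lay above every large arm, of which 2R was the most covered with 18.7%. In replicate 2 it lay below 2R, with 22.3%, and above 3R, with 18.9%, so its place above all the arms did not hold in both replicates. Relative to the large arms together, chromosome 4 was covered 1.41 times as much in replicate 1 and 1.11 times as much in replicate 2.

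On the scaffolds together, regions covered 2.30% of 9281781 bp in replicate 1 and 4.52% in replicate 2, a mean of 3.41% ± 1.57 (SD, n = 2). Both values lay below those of every large arm, the lowest of which was 13.5% for X in replicate 2. Per length, the scaffolds were covered 0.139 times as much as the large arms in replicate 1 and 0.255 times as much in replicate 2. The replicates held 71 and 210 scaffold regions, against 107 and 111 on chromosome 4, so the number of scaffold regions differed between replicates far more than the number on chromosome 4.

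The scaffolds were not alike. XHet was the most covered in each list, with 7.62% in replicate 1, 8.90% in replicate 2 and 10.2% in the replicate-set list. YHet was the least covered in each replicate, with 1.01% and 1.45%, and neither value reached those of any other scaffold. In the replicate-set list it was not the least covered, with 3.24% against 3.20% on 2RHet and 2.81% on 3RHet. Between them lay 2LHet (3.93% and 5.98%), 3LHet (2.69% and 6.00%), 2RHet (2.11% and 3.89%) and 3RHet (1.66% and 3.70%). From replicate 1 to replicate 2, the ranges of neighbours in this order overlapped, and 2LHet and 3LHet changed places between the replicates. Of these 4 scaffolds only 2LHet and 3RHet, and 2LHet and 2RHet, had ranges that did not overlap. XHet, the most covered, still had only 0.462 times the coverage of the large arms in replicate 1 and 0.503 times in replicate 2.

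**Figure D1:**
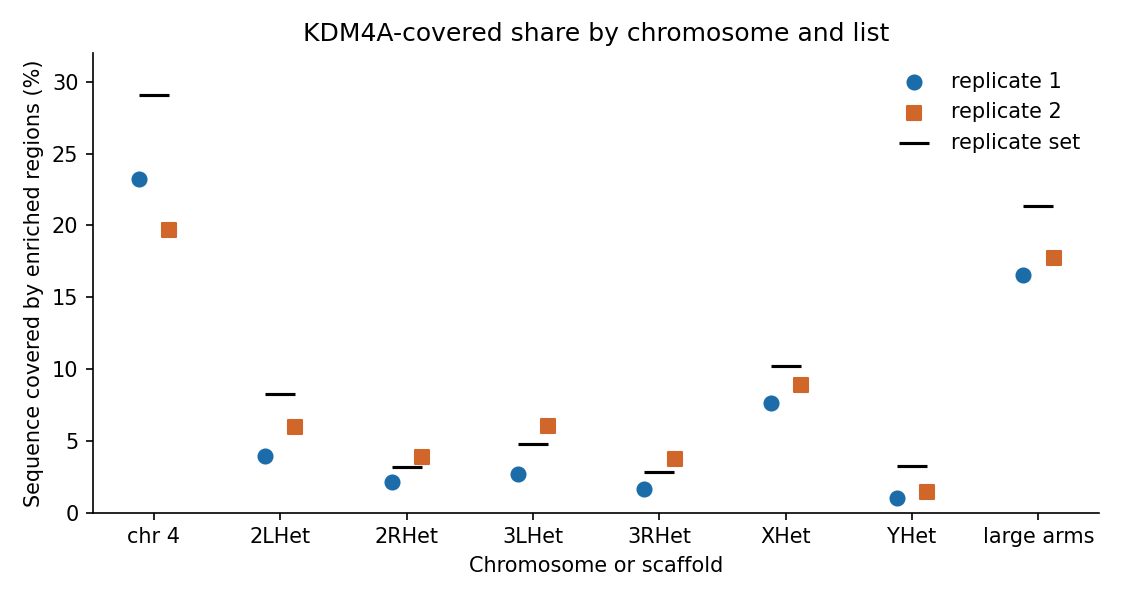
Share of each sequence covered by KDM4A regions (%, vertical axis) for chromosome 4, each scaffold and the 5 large arms together; circles are replicate 1, squares replicate 2 and dashes the list of the replicate set. Chromosome 4 (19.7 to 29.1%) stands with the large arms (16.5 to 21.3%), and every scaffold lies at 10.2% or lower.

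Neighbouring regions of chromosome 4 lay close together. The median gap from one region to the next was 2730 bp in the replicate-set list, against 3520 bp on the large arms, and the gaps ran from 28 bp to 59940 bp. In the replicates alone the median gap of chromosome 4 was 5281 bp and 4155.5 bp, a mean of 4718 ± 796 bp (SD, n = 2), and on the large arms 4811 bp and 4413 bp, so the shorter spacing of chromosome 4 was not seen in replicate 1. In the replicate-set list 9 of 149 gaps of chromosome 4 (6.04%) exceeded 20 kb, against 16.1% of those on the large arms. The share was higher in the replicates alone, with 12 of 106 (11.3%) in replicate 1 and 18 of 110 (16.4%) in replicate 2, against 20.9% and 19.7% on the arms, so the difference was small in replicate 2. Gaps under 1 kb were 29 of 149 (19.5%) in the replicate-set list, against 2050 of 8199 on the arms. They made up 14.2% in replicate 1 and 20.9% in replicate 2, against 18.9% and 21.5% on the arms, so in replicate 2 the shares were nearly equal. When regions less than 1 kb apart were joined into runs, 55 of the 150 regions (36.7%) fell into 26 runs, and no run held more than 3 regions. The longest run of 3 regions stood at 665413 to 684938 and took in the widest region of the chromosome. The share of regions in such runs was 40.0 to 43.8% on the 5 large arms.

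On the scaffolds the median gap was 17559 bp in the replicate-set list, with 38884 bp in replicate 1 and 19943.5 bp in replicate 2. Gaps over 20 kb made up 82 of 167 (49.1%), and gaps under 1 kb 24 of 167 (14.4%). The scaffolds thus had both long empty stretches and small groups of regions. By scaffold, the median gap in the replicate-set list was 2240 bp on 2LHet, 3541 bp on XHet and 12664.5 bp on YHet. It was 14268 bp on 2RHet, 23206.5 bp on 3LHet and 33140 bp on 3RHet. This order did not hold in the replicates. YHet had the largest median there, 273972 bp in replicate 1 and 142218.5 bp in replicate 2, but from only 1 and 2 gaps. XHet had the smallest, 1787 and 6195.5 bp. On 2LHet the medians were 64375.5 and 6885.5 bp, and on 2RHet 66694.5 and 20446 bp. On 3LHet they were 26111 and 18810 bp, and on 3RHet 25702 and 25304 bp.

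**Figure D2:**
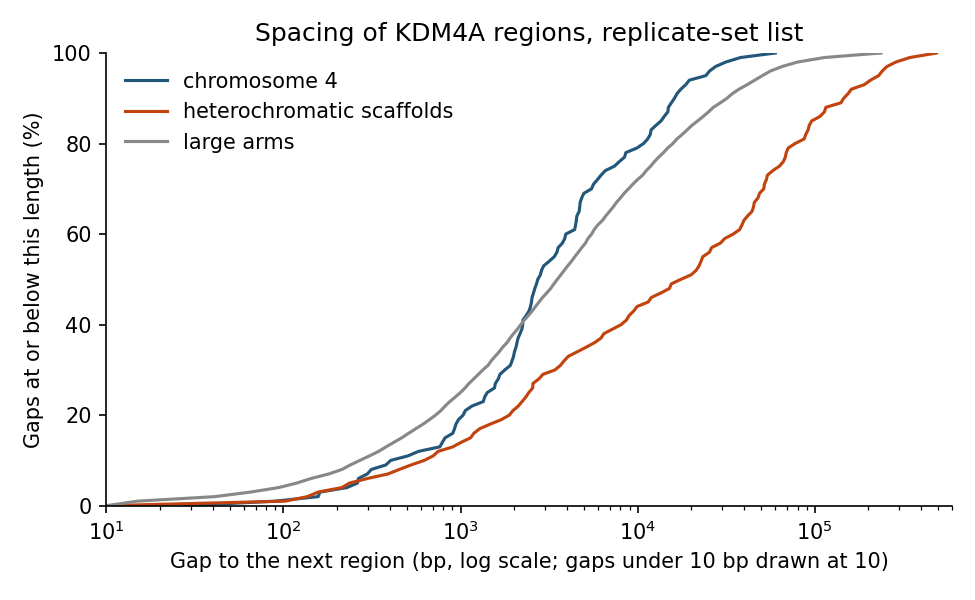
Percentage of gaps between neighbouring regions (vertical axis) at or below a given length (bp, log scale) in the replicate-set list, for chromosome 4, the scaffolds and the large arms. The median gap is 2730 bp on chromosome 4, 3520 bp on the large arms and 17559 bp on the scaffolds, and in this list chromosome 4 has smaller shares of gaps under 1 kb and over 20 kb than the arms.

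Along chromosome 4, KDM4A regions ran from 16231 to 1347440, which is 4417 bp short of the end of the sequence. With the chromosome cut into 4 stretches of equal length, the first held 32 regions, the second 37, the third 34 and the fourth 47. Coverage was 29.0%, 29.1%, 23.6% and 34.7%, so none was bare. In windows of 100 kb the coverage was lowest, at 9.43%, in the window from 700001 to 800000, where replicate 1 had 6.69% and replicate 2 had 7.43%. It was highest at 600001 to 700000, with 43.6%, and at 1000001 to 1100000, with 43.3%. The latter window was also the highest of both replicates, with 39.1% and 37.0%. The window at 600001 to 700000 was less covered in each replicate alone, with 27.3% and 26.7%. The low window and the high window at 1000001 were therefore seen in both replicates.

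In other windows the replicates differed. At 100001 to 200000 replicate 1 covered 33.5% and replicate 2 17.5%, at 1200001 to 1300000 the values were 38.1% and 21.1%, and in the last, shorter window from 1300001 they were 36.0% and 20.3%. In all 3 of these, replicate 1 had the higher coverage. The opposite was so at 800001 to 900000, with 18.2% in replicate 1 and 24.8% in replicate 2. By less, replicate 2 was also higher in the windows that begin at 400001, 700001 and 1100001, and replicate 1 in all the remaining ones.

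The longest gap of chromosome 4 spanned 59.9 kb, from 742027 to 801966, which is 4.43% of the sequence. It held no region of replicate 1 but 2 of replicate 2 that the replicate-set list left out, at 784771 to 786145 and 787242 to 788773. The next, 43.7 kb from 17372 to 61096, held no region of either replicate. It separates the first region of the chromosome, at 16231 to 17371, which no replicate overlapped, from the broad and strong region at 61097 to 68638. The third, 32.1 kb from 530069 to 562140, held no region of replicate 1 and 1 of replicate 2, at 553675 to 555078. A replicate region was counted as in a gap only where it lay wholly inside it. The regions at the edges of the first and the third gap were weak, with scores from 0.360 to 0.455. Of these, 528290 to 530068 was held by both replicates, 740507 to 742026 and 801967 to 803417 by replicate 1 alone, and 562141 to 563304 by neither.

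Both replicates held the strongest regions of chromosome 4, as they did nearly all of those on the large arms. Of its 150 regions, 9 (6.00%) scored at least 2, against 3.6% of the regions on the large arms, and all 9 were overlapped by a region of each replicate. On the large arms this was so for 290 of 295 (98.3%), so the support of the strong regions of chromosome 4 was near the background. The first among them, at 977949 to 981851, scored 2.44 in the replicate-set list, 2.72 in replicate 1 and 1.90 in replicate 2. A wider region of 6362 bp at 225595 to 231956 followed with 2.26, and with 2.82 and 1.60 in the replicates. Next stood a narrower one of 2368 bp, at 1315475 to 1317842, with a replicate-set score of 2.25 and replicate scores of 2.16 and 2.33.

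The regions at 148552 to 153845 and at 714312 to 719328 both had a replicate-set score of 2.16, with 2.64 and 1.77 for the former and 2.68 and 1.57 for the latter in replicates 1 and 2. In contrast, the region at 885511 to 890394, which scored 2.13, had nearly equal deposited scores in the replicates, with 2.32 and 2.25. Near the low-coordinate end stood 2 strong and wide regions, at 82476 to 91441 (8966 bp, score 2.11, replicates 2.32 and 2.64) and at 61097 to 68638 (7542 bp, score 2.02, replicates 2.59 and 2.31). Near the other end, the region at 1290069 to 1293801 scored 2.02, with 2.33 and 1.79, and the tenth-ranked, at 1321355 to 1323902, scored 1.81, with 1.72 and 2.00. The strongest regions were thus not gathered at one end, but they were not evenly spread. None of the 10 highest-scored lay between 231956 and 714312.

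Of the 5 widest regions of chromosome 4, 2 were also among the 9 that scored at least 2. The widest of all, 9961 bp at 672379 to 682339, scored 1.05, and the replicates divided it differently: replicate 1, which scored 1.62 there, covered 43.9% of it, and replicate 2, with 1.06, had 4 separate regions in it. A region of 9257 bp at 1046761 to 1056017 scored 1.73, with replicate scores of 1.83 and 1.67. One of 7037 bp at 1079310 to 1086346 scored 1.52, with 1.84 and 1.57. Both of the latter lie in the window from 1000001 to 1100000, the most covered of both replicates. The strong regions at 82476 and at 61097 completed the 5 widest.

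Most regions of chromosome 4 were weak. The median score in the replicate-set list was 0.496, with the central 50% of regions between 0.410 and 0.825, against a median of 0.612 on the large arms. In replicate 1 the median was 0.974 and in replicate 2 it was 0.769, a mean of 0.872 ± 0.145 (SD, n = 2), against 1.02 and 0.966 on the large arms. Chromosome 4 therefore had a lower median than the arms together in all 3 lists, but in replicate 1 it lay above 2L (0.970) and 3L (0.909). The median width, 2038.5 bp, was close to the 2172 bp of the arms, and in the replicates it was 2294 and 2085 bp against 2428 and 2208 bp.

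The lowest-scored region, at 1285761 to 1287363 with 0.259, was overlapped by replicate 1 alone, which scored it 0.679. The next, at 819379 to 821039 with 0.283, was overlapped by replicate 2 alone, with 0.841. Neither replicate overlapped those at 686606 to 688040 (0.288) and 416100 to 417534 (0.291). At 363176 to 364874 the replicate-set score was 0.298 and replicate 1 alone held a region, with a score of 1.28. None of these 5 weakest calls was held by both replicates. The last region, at 1346267 to 1347440, scored 0.495 and had a replicate 1 region of 0.848 and none of replicate 2.

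Replicate support was measured as overlap of at least 1 bp with a region of each replicate list. On chromosome 4 both replicates overlapped 57 of 150 regions (38.0%, Wilson interval 30.6 to 46.0%), against 53.7% on the large arms. Every large arm had a higher share, from 47.2% on X to 56.9% on 2L. Replicate 1 alone overlapped 39 (26.0%, against 15.8% on the arms), replicate 2 alone 26 (17.3%, against 13.1%), and neither overlapped 28 (18.7%, against 17.4%). The share with no support was thus near the background, and the shortfall of regions held by both was made up by regions held by a single replicate. At the level of base pairs, the replicates shared 156 kb of chromosome 4, which was 36.8% of what either covered, against 55.6% on the large arms.

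On the scaffolds support was lower still. Both replicates overlapped 41 of 173 regions (23.7%, interval 18.0 to 30.6%), and neither overlapped 73 (42.2%, interval 35.1 to 49.6%). Replicate 1 alone overlapped 26 (15.0%) and replicate 2 alone 33 (19.1%). The shared sequence was 121 kb, or 23.7% of what either replicate covered. It made up 56.8% of the sequence covered by replicate 1 but 28.9% of that covered by replicate 2.

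By scaffold, XHet had the highest share of regions held by both, 4 of 6, and its replicates shared 53.6% of the sequence covered by either, close to the large arms. The other shares held by both were 15 of 57 on 3LHet (26.3%), 8 of 36 on 3RHet (22.2%), 11 of 53 on 2RHet (20.8%), 2 of 14 on 2LHet and 1 of 7 on YHet. Unsupported regions made up 17 of 53 on 2RHet (32.1%), 22 of 57 on 3LHet (38.6%), 20 of 36 on 3RHet (55.6%), 8 of 14 on 2LHet and 5 of 7 on YHet. On scaffolds with so few regions the Wilson intervals are wide. They ran from 30.0 to 90.3% for the supported share of XHet and from 2.57 to 51.3% for that of YHet, so those shares cannot be ranked.

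**Figure D3:**
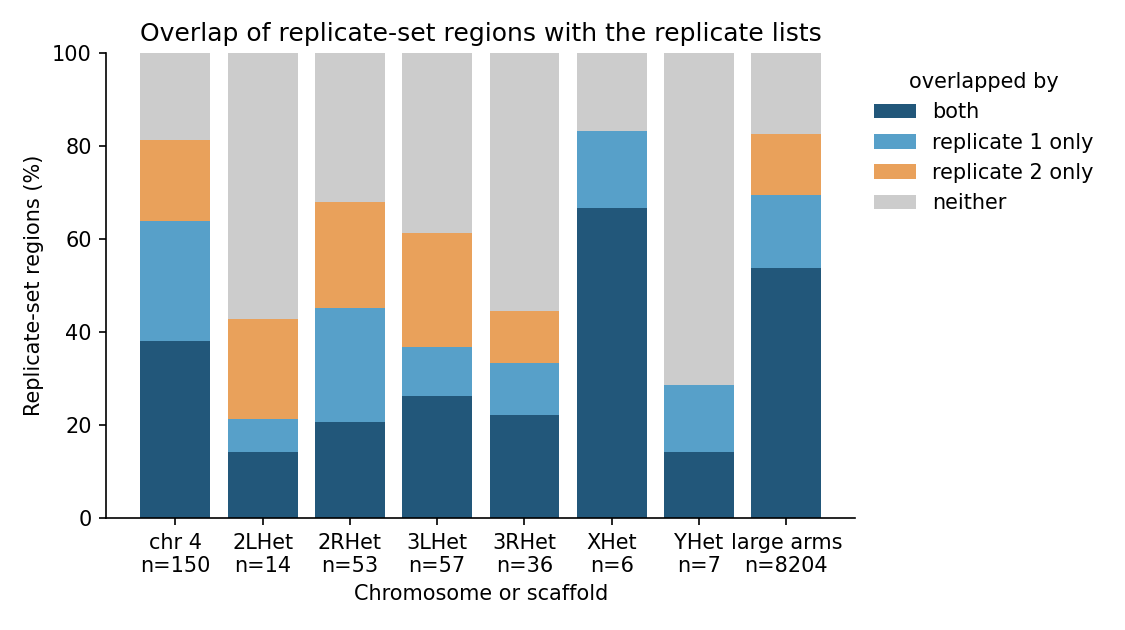
Share of replicate-set regions (%, vertical axis) overlapped by at least 1 bp by regions of both replicates, of replicate 1 only, of replicate 2 only or of neither, with the number of regions under each bar. Both replicates overlap 38.0% of the regions on chromosome 4 and 53.7% on the large arms, and neither overlaps 18.7% and 17.4% of them.

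Width went with support, in part by the measure itself, since 1 bp of overlap sufficed and a wider region has more length to be overlapped. On chromosome 4 the median width was 3733 bp for regions held by both replicates, 1699 bp for those of replicate 1 only, 1638 bp for those of replicate 2 only and 1204.5 bp for unsupported ones. On the scaffolds these medians were 3824, 1817.5, 1346 and 1177 bp, and on the large arms 3384, 1759.5, 1538 and 1194 bp. The gradient was thus shared by all 3 and not particular to chromosome 4 or the scaffolds. The lists themselves differ in how short a region they hold, down to 1301 bp in each replicate but down to 1001 bp in the set. Regions narrower than 1301 bp made up 18 of the 28 unsupported regions of chromosome 4 (64.3%), 48 of the 73 on the scaffolds (65.8%) and 64.4% of those on the large arms. Such narrow regions were 34 of 150 on chromosome 4 (22.7%), 65 of 173 on the scaffolds (37.6%) and 18.0% on the large arms. Among the regions of at least 1301 bp, a split made after the widths were seen, both replicates held 57 of 116 on chromosome 4 (49.1%), 40 of 108 on the scaffolds (37.0%) and 65.3% on the large arms. Neither held 10 (8.62%), 25 (23.1%) and 7.57%. The order of the 3 in the share held by both was thus the same with and without the narrow regions.

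Regions held by both replicates had the higher median score on chromosome 4, on the scaffolds and on the large arms. On chromosome 4 the median score was 1.05 for regions held by both, and 0.484, 0.399 and 0.437 for those of replicate 1 only, of replicate 2 only and of neither. No unsupported region of chromosome 4 scored above 0.737, the value of the first region, at 16231. The following unsupported ones, at 1185754 to 1186920 and at 1191325 to 1192542, scored 0.546 and 0.529. Among regions held by a single replicate the highest was a narrow one of 1094 bp at 1311783 to 1312876, with 1.09 and a replicate 1 score of 1.35. After it came 1279966 to 1283277, with 0.853 and 1.52 in replicate 1, and 213128 to 215667, with 0.772 and 0.999 in replicate 1.

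On the scaffolds the medians were 1.19 for both, 0.575 for replicate 1 only, 0.470 for replicate 2 only and 0.614 for neither, and unsupported regions reached 3.11. The large arms had medians of 1.07, 0.451, 0.434 and 0.502 in the same order, and unsupported regions there reached 3.00. Of the 173 scaffold regions 12 (6.94%) scored at least 2, against 3.6% on the large arms. In replicate 1 the share was 15.5% against 10.8% on the arms, but in replicate 2 it was 2.86% against 4.71%. The higher share of the scaffolds therefore did not hold in both replicates. Of the 12 replicate-set regions both replicates held 5, replicate 2 alone held 1, and neither held 6. On the large arms 1.69% of the regions scored at least 2, 5 of 295, were overlapped by neither replicate.

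The 5 strong scaffold regions held by both replicates lay on 5 different scaffolds and were at least 2375 bp wide. The highest, at 1394407 to 1398970 on 3LHet, scored 3.25, with 3.86 in replicate 1 and 2.93 in replicate 2. On 2RHet the region at 3196180 to 3200347, the last of that scaffold, scored 2.40, with 2.82 and 1.99. YHet had one at 304200 to 306574 with 2.24, and with 2.22 and 2.78 in the replicates. For 3RHet it was 2348173 to 2351115, with 2.17, 2.77 and 1.51, and for XHet 83445 to 86126, with 2.11, 2.74 and 1.501. In YHet alone among them replicate 2 had the higher score.

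The 6 strong scaffold regions that neither replicate overlapped were narrow, between 1001 and 1535 bp. They were at 499942 to 500985 (score 3.11) and 1079748 to 1080759 (3.00) on 3LHet, at 656644 to 657644 (2.76) and 313534 to 314541 (2.47) on 2RHet, and at 758232 to 759382 (2.42) and 853894 to 855428 (2.30) on 3RHet. One more, at 2224434 to 2225444 on 3LHet with a score of 2.11, had 2.47% of its length overlapped by a replicate 2 region that scored 1.08. Of these 7 regions, 6 were narrower than the shortest region of either replicate list.

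The scores of these 7 had a common property. In the replicate-set list many scores, less a constant of 0.302, equalled the log2 of a ratio of whole numbers up to 30 within 1e-06. This was so for 513 of 8653 regions, against 25 when the natural logarithm was tried and 34 for log10. With this constant the unsupported 6 had the ratios 7 to 1, 13 to 2, 11 to 2, 9 to 2, 13 to 3 and 4 to 1, in the order named. The seventh had 7 to 2. All of the 5 unsupported strong regions of the large arms also had such a score, whereas it was found in 3 of the 290 strong arm regions held by both (1.03%), in 0 of the 9 on chromosome 4 and in 1 of the 5 on the scaffolds, that on YHet with 23 to 6. Only scores that occur more than once in a list were tried as its constant, and the one with most matches was kept. A constant apart from it by the log2 of a whole-number ratio would give other ratios, so those named hold for this constant only. A ratio in lowest terms does not give the counts behind it, and the counting of reads in these regions was not tested. Scores of this log2 form made up 28 of 173 on the scaffolds (16.2%), 2 of 150 on chromosome 4 (1.33%) and 5.44% on the large arms. The same search, with the same limit, gave constants of 0.607 for replicate 1 and 0.882 for replicate 2.

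**Figure D4:**
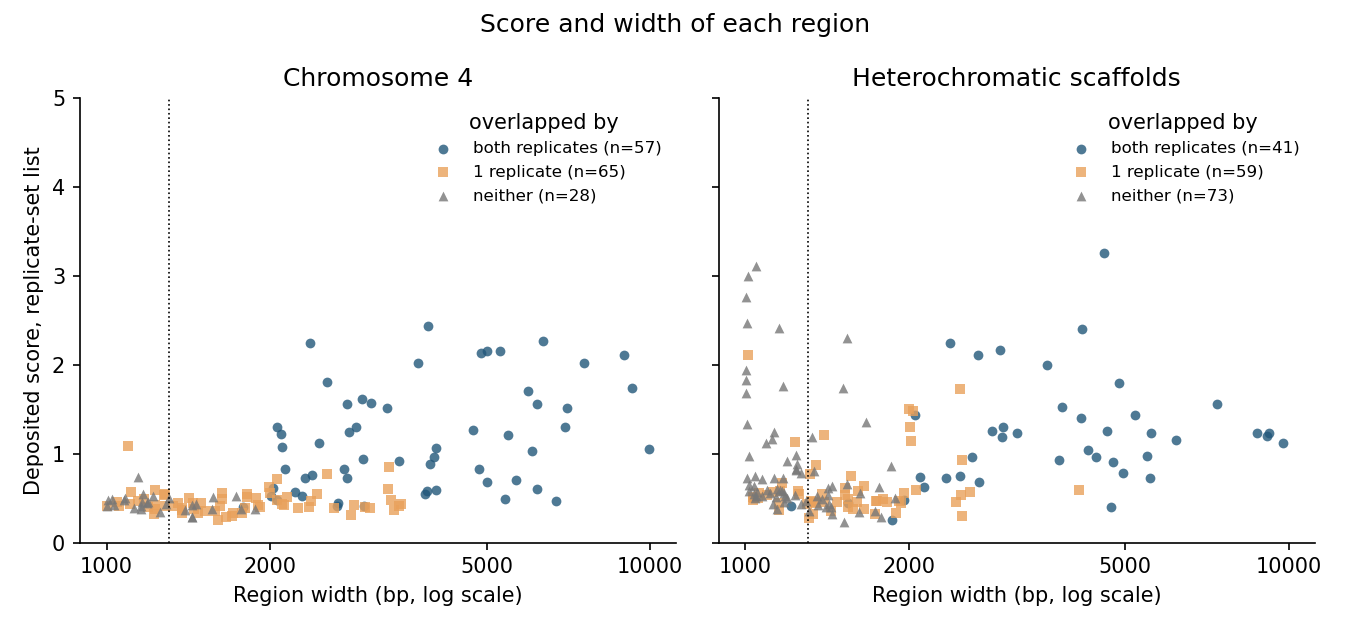
Width (bp, log scale) and deposited score of each replicate-set region on chromosome 4 and on the scaffolds, by the number of replicates that overlap it; the dotted line marks 1301 bp, the shortest region of the replicate lists. On chromosome 4 all 9 regions scored at least 2 are held by both replicates, whereas on the scaffolds 6 narrow regions with scores from 2.30 to 3.11 are held by neither.

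In regions held by both, replicate 1 mostly had the higher score. On chromosome 4 this was so in 42 of 57 regions (73.7%), with medians of 1.44 in replicate 1 and 0.949 in replicate 2 and a median difference of 0.28. On the scaffolds it was so in 32 of 41 (78.0%), with medians of 1.42 and 1.02 and a median difference of 0.24. On the large arms replicate 1 was higher in 59.5%, with a median difference of 0.084. Since the constants found for the lists differ, the sign of a difference may depend on them. The value to set against chromosome 4 and the scaffolds is that of the arms. Among the large arms X had the highest share, 70.5%, so a share above 70% was not found on chromosome 4 and the scaffolds alone.

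By scaffold replicate 1 was higher in 8 of 8 regions of 3RHet, 10 of 11 of 2RHet, 11 of 15 of 3LHet, 2 of 4 of XHet, 1 of 2 of 2LHet and 0 of 1 of YHet. Across regions the scores of both replicates went together with a Spearman rho of 0.65 over the 57 regions of chromosome 4 and 0.71 over the 41 of the scaffolds, against 0.71 over the 4405 of the large arms. These describe regions within 2 libraries, which are not independent replicates. The single pair of chromosome 4 that departed most toward replicate 2 was at 1296217 to 1299662, with 1.04 in replicate 1 and 2.68 in replicate 2. In the other direction, the region at 506301 to 508390 had 1.83 and 0.363. Both were picked after their values were seen.

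Replicate 2 also divided regions more often. It had several regions in 10 of the 57 regions of chromosome 4 (17.5%) and in 12 of the 41 of the scaffolds (29.3%), against 14.9% on the large arms. For replicate 1 these were 2 (3.51%) and 3 (7.32%), against 13.3%. The median region of chromosome 4 held by both was covered over 95.4% of its length by replicate 1 and over 83.2% by replicate 2, and that of the scaffolds over 93.5% and 80.6%.

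**Figure D5:**
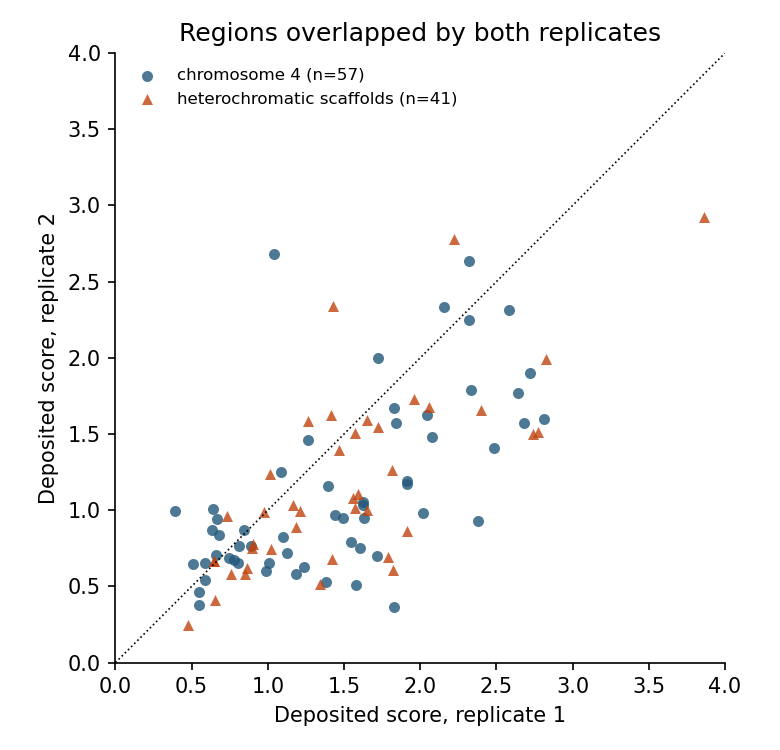
Deposited score in replicate 1 (horizontal axis) and replicate 2 (vertical axis) of the 57 regions of chromosome 4 and the 41 scaffold regions that both replicates overlap, each score being that of the replicate region there; the dotted line marks equal scores. Replicate 1 has the higher score in 42 of 57 regions of chromosome 4 and in 32 of 41 on the scaffolds.

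The replicate lists also held regions that the replicate-set list did not. On chromosome 4 these were 12 of 107 in replicate 1 (11.2%, against 2.7% on the large arms) and 14 of 111 in replicate 2 (12.6%, against 16.1%). On the scaffolds they were 5 of 71 in replicate 1 (7.04%) but 128 of 210 in replicate 2 (61.0%). None of these regions of chromosome 4 and the scaffolds was overlapped by the other replicate. On the large arms this overlap was also rare, with 4 of 173 such regions of replicate 1 and 14 of 1124 of replicate 2. Its absence was thus near the background. The large number of scaffold regions in replicate 2 was therefore mostly of regions found in that list alone.

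They came from the 3 longest scaffolds, with 42 of 67 on 2RHet (62.7%), 43 of 72 on 3LHet (59.7%) and 37 of 52 on 3RHet (71.2%). There were 2 of 9 on 2LHet, 2 of 7 on XHet and 2 of 3 on YHet. They were narrower than the replicate 2 regions inside the set, with a median of 1567.5 bp against 2051.5 bp. They were not lower in score, with medians of 0.968 and 0.936 and a range from 0.524 to 2.31. Such regions were also narrower on the large arms, 1497.5 against 2438 bp, and on chromosome 4, 1526 against 2170 bp. There their median scores were lower, 0.864 against 1.01 on the arms and 0.749 against 0.789 on chromosome 4. Many replicate 2 scores on the scaffolds were repeated exactly: 133 of 210 (63.3%) equalled the score of another region of that list, against 40.5% on chromosome 4 and 40.1% on the large arms. In replicate 1 the shares were 14.1%, 31.8% and 18.4%. The part of depth, of read placement or of the caller in these shares was not tested.

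Each scaffold had its own layout. On 2LHet the 14 regions lay in small groups between 31516 and 318074, with 8 of them in runs with gaps under 1 kb. The longest gap, from 57301 to 165199, took 29.3% of the scaffold and held 1 region of replicate 2 alone. Its highest score, 1.95, belonged to a region of 1004 bp at 176223 to 177226 that neither replicate overlapped. Both replicates held 2 regions, at 31516 to 36727 (score 1.43, replicates 1.82 and 1.26) and at 165200 to 174324. The latter was 9125 bp wide, with replicate scores of 1.26 and 1.58, and made up a large part of the 30.4 kb covered on 2LHet.

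On 2RHet the 53 regions were fewest in the third of 4 equal stretches, with 19, 13, 7 and 14. The longest gap, 488 kb from 2285743 to 2773698, was 14.8% of the scaffold and held no region of replicate 1 but 3 of replicate 2 that the set left out. Just before it stood the region at 2283259 to 2285742, which scored 1.73 in the replicate-set list and 3.29 in replicate 1, the highest replicate 1 score of that scaffold, with no region of replicate 2. The next-highest region held by replicate 1 alone was at 341564 to 343567, with 1.51 and 1.96. The widest, 6192 bp at 470487 to 476678, was held by both, with 1.15 and with replicate scores of 1.57 and 1.02. The first region, at 80999 to 82255, scored 0.543 and was held by replicate 1 alone.

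On 3LHet the number of regions rose toward the high-coordinate end, with 10, 13, 13 and 21 of the 57 in 4 equal stretches. The number held by both did not, with 5, 3, 3 and 4. Coverage fell and then rose, with 5.09%, 3.57%, 3.49% and 6.82%. The longest gap, 222 kb from 1572666 to 1794635, held no region of replicate 1 and 3 of replicate 2. The largest run of any scaffold, 4 regions with gaps under 1 kb, was at 2391652 to 2405652. The widest region, 9773 bp at 598399 to 608171, scored 1.12, with 1.65 and 0.998 in the replicates. The first region, at 5951 to 7739, and the last, at 2475111 to 2476586, scored 0.489 and 0.452 and were held by replicate 2 alone.

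The 36 regions of 3RHet were uneven along the scaffold, with 4, 5, 14 and 13 in 4 equal stretches and coverage of 0.780%, 1.03%, 5.36% and 4.07%. All 8 regions held by both replicates lay in the third and the fourth stretch, between 1704828 and 2379390. Replicate 1 had no region within 1697886 bp of the first region of the scaffold, so none in the first and second stretch could be held by both. Replicate 2 had regions in these stretches that the set left out, among them 4 between 41080 and 296334. The longest gap, 346 kb from 411800 to 758231, held no region of replicate 1 and 4 of replicate 2. The widest region, 9185 bp at 1804297 to 1813481, scored 1.23, with 1.57 and 1.51, and belonged to a run of 3 regions that began at 1801279. Replicate 1 alone had a region of 2.61 on 3RHet, at 1797754 to 1799146, that the replicate-set list did not hold. The first region, at 5335 to 6755 (0.540), was held by neither replicate and the last, at 2476840 to 2478235 (0.453), by replicate 2 alone.

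On XHet 5 of the 6 regions lay between 56189 and 86126, so that the second of 4 equal stretches of the scaffold was covered over 38.7% of its length. In order, they were 56189 to 58669 (score 0.747, replicates 0.733 and 0.965), 59872 to 64619 (0.907, with 1.01 and 1.24), 68161 to 70605 (0.451, replicate 1 only, with 0.906), 74426 to 81806 (1.56, with 2.06 and 1.68) and 83445 to 86126, named above. In each of the 3 lists the last 2 regions of the group scored above the others, while replicate 1 and replicate 2 differed in which of the pair was higher. A gap of 86.6 kb, 42.4% of the scaffold, separated the group from the sixth region, at 172734 to 173852, which scored 1.17 and which neither replicate overlapped. The gap held no region of replicate 1 but 1 of replicate 2, at 157923 to 159659 (1.63). Replicate 2 had another beyond the sixth region, at 178032 to 179338 (1.65), and the replicate-set list left out both.

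On YHet the 7 regions formed a group of 4 between 23514 and 60939 and a group of 3 between 298722 and 329181. Between the groups lay 238 kb, 68.5% of the scaffold. That gap held no region of replicate 1 but 1 of replicate 2, at 138784 to 140211 with a score of 2.31. Replicate 2 had another region before the first group, at 16978 to 18411 (1.34), and the replicate-set list left out both. In the first group only the region at 28993 to 31006 (1.14) was held by a replicate, replicate 1, with 1.61. Neither replicate overlapped those at 23514 to 24759 (0.887), 26171 to 28025 (0.858) and 59932 to 60939 (1.34). In the second group the region at 304200, named above, was held by both, and those at 298722 to 300385 (1.36) and 328090 to 329181 (1.12) by neither. YHet had the highest median score of the scaffolds, 1.14, followed by XHet with 1.04, while the other 4 had medians from 0.580 to 0.650, but a single region of YHet had the support of both replicates.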

How the data were processed

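The score of each enriched region was deposited by the authors, in a list per ChIP sample and another for both samples as a replicate set. Per the labels, the input of the same replicate number served for each ChIP's list. Positions are on FlyBase release 5, per the file headers, and the submitters' processing notes name Bowtie 0.12.7. How regions were called and filtered, and whether reads were pooled for the replicate set, is not given in the sources used here, so overlap of that list with the replicates is not independent. The 1 region of depletion was left out.

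Coverage, gaps and overlap were computed with pandas 2.3.3, scipy 1.17.1 and numpy 2.4.6 under Python 3.11.15, drawn with matplotlib 3.10.9, and tested on simulated lists. No regions overlapped within a list. Medians were taken over regions. Where several replicate regions overlapped a region, the one sharing most base pairs gave the replicate score.

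Named regions were, on chromosome 4, the 10 highest-scored, the 5 widest, the 5 lowest-scored, those beside the 3 longest gaps, the first and the last. On each scaffold they were the 3 highest-scored, the widest, the first and the last, or all where there were 10 or fewer. The 3 highest-scored unsupported and singly supported regions were added. The other regions named, the log2 form of the scores and the split at 1301 bp were chosen after values were seen. Members and lists were chosen with earlier results of these data known.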

Additional observations from a re-analysis of the deposited data

How the results depend on the processing

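Of 52 alternatives over 12 results, 13 stayed within the spread between replicates or within a factor of 1.5 for counts, and 39 moved. With the higher-scored 50% of each list, chromosome 4 kept 49 of its regions in the replicate-set list, with coverage of 14.7%. Their median score was 1.21, their median width 3312 bp and their median gap 14390 bp. The share held by both replicates was 51.0%, counted against the replicate lists cut in the same way. It is therefore not the share of these regions that the whole replicate lists overlap. The scaffolds kept 87, with a median score of 1.15 and a gap of 48143 bp. With only the regions held by both, chromosome 4 had 57 regions, coverage of 17.4%, a median score of 1.05, a width of 3733 bp and a gap of 14390 bp. The scaffolds had 41, 1.85%, 1.19, 3824 bp and 70664 bp. Both settings select regions by score or by support, and the cause of these moves was not tested. With only regions of at least 1301 bp, added after the data were seen, the share held by both was 49.1% on chromosome 4 and 37.0% on the scaffolds, which kept 108 regions.

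Leaving out one replicate and using the other's list gave, on chromosome 4, 107 to 111 regions, coverage of 19.7 to 23.2%, median scores of 0.769 to 0.974, widths of 2085 to 2294 bp and gaps of 4155.5 to 5281 bp. On the scaffolds it gave 71 to 210 regions, 2.30 to 4.52%, 0.962 to 1.24, 1668 to 2497 bp and 19943.5 to 38884 bp, and the cause of this spread was not tested. The share of set regions overlapped by the remaining replicate was 55.3 to 64.0% on chromosome 4 and 38.7 to 42.8% on the scaffolds, higher than for both because it asks for overlap with 1 list and not 2.

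No paired analysis was possible because the inputs have no values to pair with the ChIP samples. With depth and readable sequence unknown, a sequence with no region cannot be read as unbound, and the results rest on 2 ChIP samples.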
